A study of Drosophila melanogaster with 6 samples.

Results

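Described here are 8 genes of Drosophila melanogaster, 7 that encode extracellular or cell-surface metalloproteases and 1 that encodes an inhibitor of such enzymes, out of 17494 genes listed in each deposited file. They are the matrix metalloproteases Mmp1 and Mmp2, the inhibitor Timp, the ADAM proteases kuz, Tace and Meltrin, and the ADAMTS proteases AdamTS-A and AdamTS-B. They were chosen by name, as proteins that could open tissue during invasion. The study states, from earlier work, that macrophages normally enter the germband, the tissue invaded here, without matrix metalloproteases. Of the 8 genes, 7 were found under these symbols. AdamTS-B is listed under its older name CG4096 and was found by its gene identifier.

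Matrix metalloproteases are zinc-dependent enzymes made as inactive precursors, which cut proteins of the extracellular matrix and of the cell surface. The tissue inhibitors of metalloproteases block them by binding in the active site. ADAM proteases are anchored in the plasma membrane and cut other membrane proteins just outside the cell, a step in Notch, EGF receptor and TNF signalling, whereas ADAMTS proteases are secreted and bind to the matrix. Fly macrophages spread through the embryo from the head and secrete much of its basement membrane, the sheet of matrix under epithelia.

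Transcript levels were measured in 6 RNA samples from embryonic macrophages (hemocytes) sorted by FACS for mCherry, 3 from control embryos and 3 from mac>DfosDN embryos. By the study's methods the control embryos, labelled WT, carried the macrophage driver srpHemo-Gal4 and the marker srpHemo-3xmCherry in a w background, and the mac>DfosDN embryos carried UAS-DfosDN in addition. The label of both groups is stage 11, with collection at 29°C, and each sample pools many embryos. DfosDN is a dominant negative fragment of the transcription factor Dfos, with the bZIP part that pairs and contacts DNA and without the part that activates transcription, made only in cells in which the srpHemo driver is active, so the transgene is not driven in the rest of the embryo. The comparison asks which of the transcripts depend on Dfos activity while the macrophages are entering tissue.

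The deposited values are on the TPM scale (reads divided by gene length and scaled to a fixed sum), and those of 1 or more have lost their decimal point. Each value was turned back into a whole number of reads, as described under the processing, which gave between 8492303 and 10110771 restored reads per sample. Levels of 1 gene are given as restored reads and as CPM (restored reads per 1e+06 after TMM scaling). By the study's methods the reads come from transcript 3′ ends, where read number should depend little on length, while the deposited values are divided by exon length, so the order of different genes is given on both scales. In such bulk samples, fewer macrophages in a sort cannot be told apart from less RNA per macrophage. The gene kay, which encodes Dfos, had 368, 784 and 665 reads in control against 941, 945 and 866 with DfosDN expressed. Its log2 fold change was 0.73 (SE 0.25, adjusted p = 0.104, limma with Benjamini-Hochberg adjustment over 7526 genes). Reads of the transgene and of the endogenous gene are not separated on kay. Of 14 macrophage markers all had reads in these samples, with a summed level of 24185 to 34429 CPM in control against 17767 to 22033 in mac>DfosDN macrophages. NimC4 made the largest contribution of the 14 (14340 to 19000 against 7163 to 11800 CPM), and 9 of the 14 had a fold change below 0 and 5 above. Crystal cell genes were also present, with a sum of 9558 to 26567 and 3715 to 4904 CPM, most of it from PPO2. The decimal points of PPO2 are uncertain, and with a single mean in the restoration its difference was not past the threshold (adjusted p = 0.914, limma) and PPO1 was set aside. Of the fat body markers, Lsp2 was at 0 in all 6 samples, and Fbp1 and Adh had at most 1 and 7 reads in any sample.

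Reads of all 8 genes were found in the sorted samples of both genotypes, but at very different levels. Markers of other tissues had reads in these samples too, and the part of other cells in the levels was not tested. The ADAM protease gene kuz was far above the rest, Mmp2 and Meltrin formed a middle tier, AdamTS-B lay below them, and Mmp1, AdamTS-A, Timp and Tace were scarce. Of the 7 genes with enough reads to be tested, 0 differed between mac>DfosDN and control macrophages at an adjusted p under 0.05 (limma with Benjamini-Hochberg adjustment). Of all 7526 genes tested, 5.34% passed the same threshold, made up of 2.07% that were higher and 3.27% that were lower. With limma-voom on the same reads, 4.2% of all genes passed (1.59% higher and 2.6% lower), and again 0 of the 7. At an unadjusted p under 0.05, 1 of the 7 genes passed, against 18.9% of all genes. That gene was AdamTS-B, whose mean in mac>DfosDN macrophages was 2.01 times that of control. The median log2 fold change of the 7 genes was 0.33, with 5 values above and 2 below 0, and the median of all genes tested was -0.0011.

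**Figure D1:**
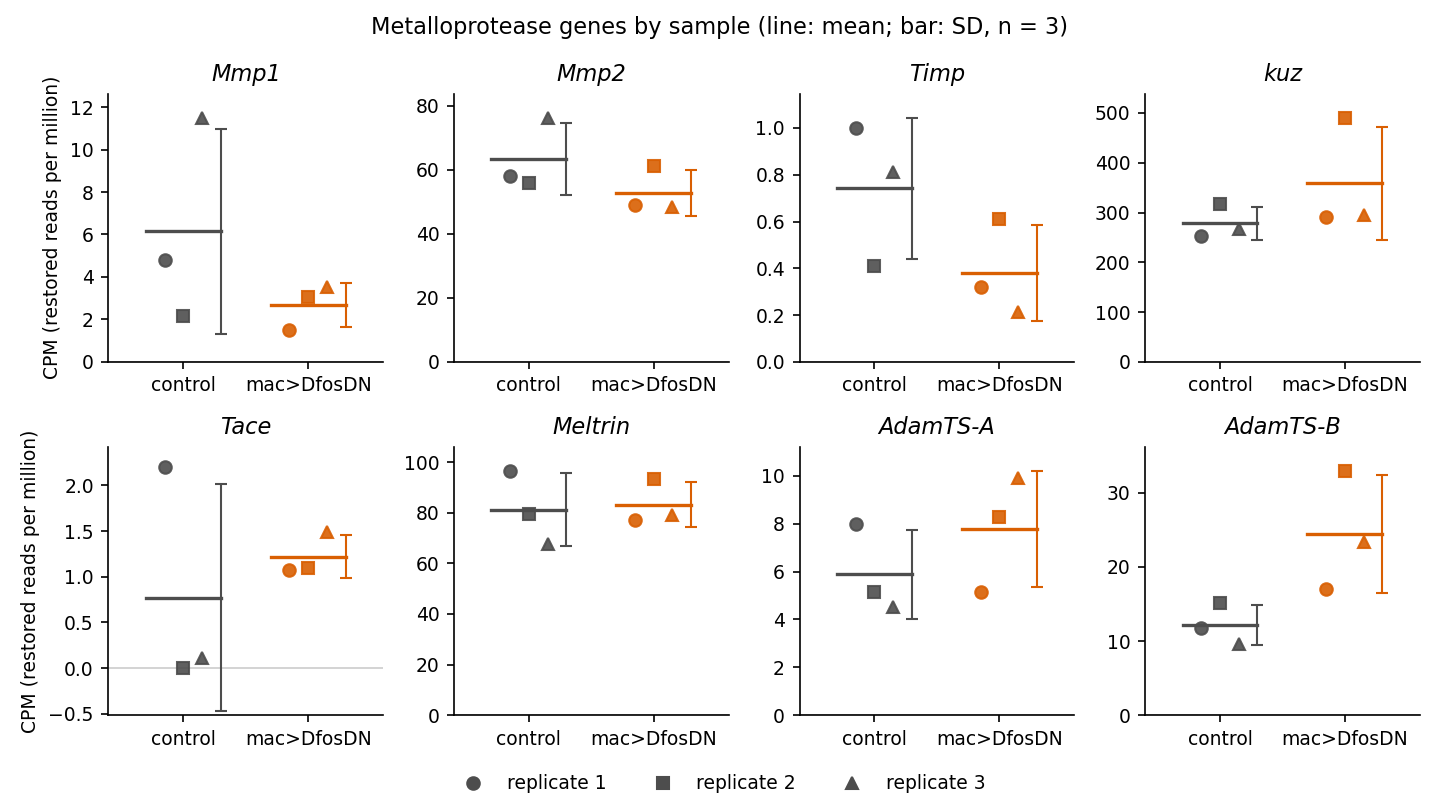
CPM from restored reads (linear axes, a scale for each gene) of the 8 genes in the 3 control and the 3 mac>DfosDN samples. Symbols stand for samples, horizontal lines for group means and bars for the SD (n = 3), and AdamTS-B is the only gene whose groups do not overlap, with 9.64 to 15.1 in control and 17.0 to 32.9 in mac>DfosDN macrophages.

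The order of the levels is given first as CPM. In control macrophages kuz came first with a mean of 278 CPM, followed by Meltrin with 81.3 CPM and Mmp2 with 63.5 CPM, whose sample ranges overlapped. AdamTS-B (12.2 CPM) and Mmp1 (6.15 CPM) overlapped, as did Mmp1 and AdamTS-A (5.89 CPM), and Tace (0.773 CPM) and Timp (0.741 CPM) came last and overlapped. With DfosDN the order was kuz (358.5 CPM), Meltrin (83.1 CPM), Mmp2 (52.8 CPM), AdamTS-B (24.4 CPM), AdamTS-A (7.77 CPM), Mmp1 (2.68 CPM), Tace (1.22 CPM) and Timp (0.381 CPM), and no neighbours overlapped. Mmp1 and AdamTS-A were thus the only neighbours in another order of means in the 2 genotypes. Measured against the 11644 genes with restored reads, kuz stood above 95.8% of genes in mean control CPM, Mmp2 above 84.2%, AdamTS-B above 61.6% and Tace above 33.3%.

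As TPM, divided by exon length, kuz was again highest, with a mean of 47.9 ± 5.49 TPM in control and 61.4 ± 17.5 TPM with DfosDN (SD, n = 3 each), and above 87.9% of genes in control. Mmp2 and Meltrin followed with 15.3 and 14.5 TPM in control, and with 12.7 and 14.8 TPM with DfosDN, and overlapped in both genotypes. AdamTS-B came next with 3.73 TPM in control, apart from its neighbours, and with 7.46 TPM with DfosDN. Mmp1 (1.54 TPM), AdamTS-A (0.933 TPM), Timp (0.571 TPM) and Tace (0.393 TPM) followed in control, each overlapping with the next. On this scale Mmp2 in control stood just above Meltrin, and Timp just above Tace, the reverse of their order as CPM, within ranges that overlapped on both scales. In reads, kuz alone took 58.0% to 71.0% of the reads on the 8 genes in each sample, and kuz, Tace and Meltrin together 76.5% to 84.7%.

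Mmp2 (FBgn0033438) encodes a matrix metalloprotease first described as anchored to the membrane. It lies on chromosome 2R from 9611139 to 9683858 on the minus strand (BDGP6.54 annotation), with 3 transcripts that share 1 annotated end. The exons of Mmp2 share bases with asRNA:CR44069 on the other strand, which is not among the genes with restored reads, so its reads are not known here. There were 582, 545 and 657 reads in the control samples, or 58.2, 55.9 and 76.3 CPM, and in the mac>DfosDN samples 458, 501 and 454 reads, or 49.0, 61.1 and 48.3 CPM. Control 3 was the highest, and mac>DfosDN 2 lay above both other control samples, so the groups overlapped. The mean was 63.5 ± 11.2 (SD, n = 3) in control and 52.8 ± 7.21 (SD, n = 3) with DfosDN. A log2 fold change of -0.26 (SE 0.20, 95% interval -0.69 to 0.17) was not past the adjustment (adjusted p = 0.543, limma; 2-sided exact permutation test on the 6 log2 values, p = 0.3), and without control 3 it was -0.12 (adjusted p = 0.883, limma). The interval covers a level in mac>DfosDN macrophages of 0.622 to 1.13 times that of control, both taken as CPM + 1, the scale of the fit.

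Mmp1 (FBgn0035049) encodes the matrix metalloprotease first described as secreted, and is known from other fly tissues as a target gene of JNK signalling. It lies on chromosome 2R from 24671294 to 24688184 on the minus strand, with 10 transcripts. Control macrophages had 48, 21 and 99 reads, or 4.80, 2.15 and 11.5 CPM, and the mac>DfosDN samples 14, 25 and 33 reads, or 1.50, 3.05 and 3.51. Control 3 was the highest and mac>DfosDN 1 the lowest, but control 2 lay within the mac>DfosDN range, and the control values spanned more than the mac>DfosDN values did. The mean was 6.15 ± 4.81 CPM (SD, n = 3) in control and 2.68 ± 1.05 (SD, n = 3) with DfosDN. Its log2 fold change was -0.78 (SE 0.49, 95% interval -1.81 to 0.25, adjusted p = 0.420, limma; 2-sided exact permutation p = 0.3). The fold change rests largely on single control samples, since it was -0.26 without control 3 and -1.25 without control 2, with adjusted p-values of 0.883 and 0.204. Part of Mmp1 overlaps exons of Pof on the other strand, on which at most 65 reads were counted in any sample, and the strand setting of the read counting is not given in the sources used here.

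Of the reads on both matrix metalloprotease genes, Mmp2 took 86.9% to 96.3% in the control and 93.2% to 97.0% in the mac>DfosDN samples, ranges that overlapped. These shares are of reads, and the exons of Mmp2 (5065 bases) and Mmp1 (4841 bases) are of similar total length.

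Timp (FBgn0025879), the single fly inhibitor of this family, lies on chromosome 3R from 10203875 to 10213007 on the minus strand, with 1 transcript. Its exons share bases with Syn on the other strand, which had up to 46 reads in a sample, more than Timp itself. Only 10, 4 and 7 reads fell on it in the control samples, or 1.0, 0.410 and 0.813 CPM, and 3, 5 and 2 reads with DfosDN, or 0.321, 0.610 and 0.213. Control 1 and control 3 lay above all mac>DfosDN samples, and control 2 lay among them. With no more than 10 reads in any sample Timp did not pass the filter of at least 10 reads in 3 samples, and its 21 control and 10 mac>DfosDN reads in all limit what can be measured. A 2-sided exact permutation test on its log2 values gave p = 0.2, and when all genes with a read were fitted its log2 fold change was -0.33 (SE 0.26, adjusted p = 0.637, limma). That fit uses CPM + 1, which understates changes at such low levels. The mean CPM of Timp with DfosDN was 0.514 times that of control. Timp made up 0.702% to 1.56% of the reads on Mmp1, Mmp2 and Timp in the control samples and 0.409% to 0.942% in the mac>DfosDN samples, with exact binomial 95% intervals that reach from 0.050% to 2.85% over the 6 samples. These intervals cover counting error only.

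The ADAM protease gene kuz (FBgn0259984) encodes Kuzbanian, which cuts Notch and its ligand Delta at the cell surface. It lies on chromosome 2L from 13550139 to 13639411 on the plus strand, with 5 transcripts and 3 annotated ends. The exons of kuz share bases with 3 noncoding RNA genes on the same strand, among them mir-2489. These are not among the genes with restored reads, so their reads are not known here. The control samples had 2522, 3085 and 2294 reads, or 252, 317 and 266 CPM, and the mac>DfosDN samples 2718, 4020 and 2773 reads, or 291, 490 and 295. Control 2 lay above mac>DfosDN 1 and 3, and mac>DfosDN 2 stood well above the other 5 samples. The mean was 278 ± 33.7 CPM (SD, n = 3) in control and 359 ± 114 (SD, n = 3) with DfosDN. Its log2 fold change of 0.33 (SE 0.19, 95% interval -0.08 to 0.73) was not past the adjustment (adjusted p = 0.387, limma; 2-sided exact permutation p = 0.3), and without mac>DfosDN 2 it was 0.08 (adjusted p = 0.871, limma).

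That sample is also the one whose decimal point mattered. Of the 48 values of the 8 genes, 18 were intact and 30 had lost the decimal point, and all but 1 of these were taken at the smallest power of 10 that gives whole reads. The exception was kuz in mac>DfosDN 2, where the digits allow 402, 4020 or 40200 reads. The value of 4020 had a posterior probability of 0.998, both with a mean for each genotype and with a single mean. The first model sets this value against mac>DfosDN 1 and 3 (2718 and 2773 reads), and the single mean against all other 5 samples. In both cases 402 reads would be far below the samples compared. With 402 reads, in a fit that takes the smallest power for every gene, the log2 fold change of kuz was -0.77 (adjusted p = 0.676, limma), so its direction depends on this choice. No other value of the 8 genes had a posterior probability under 0.998.

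**Figure D2:**
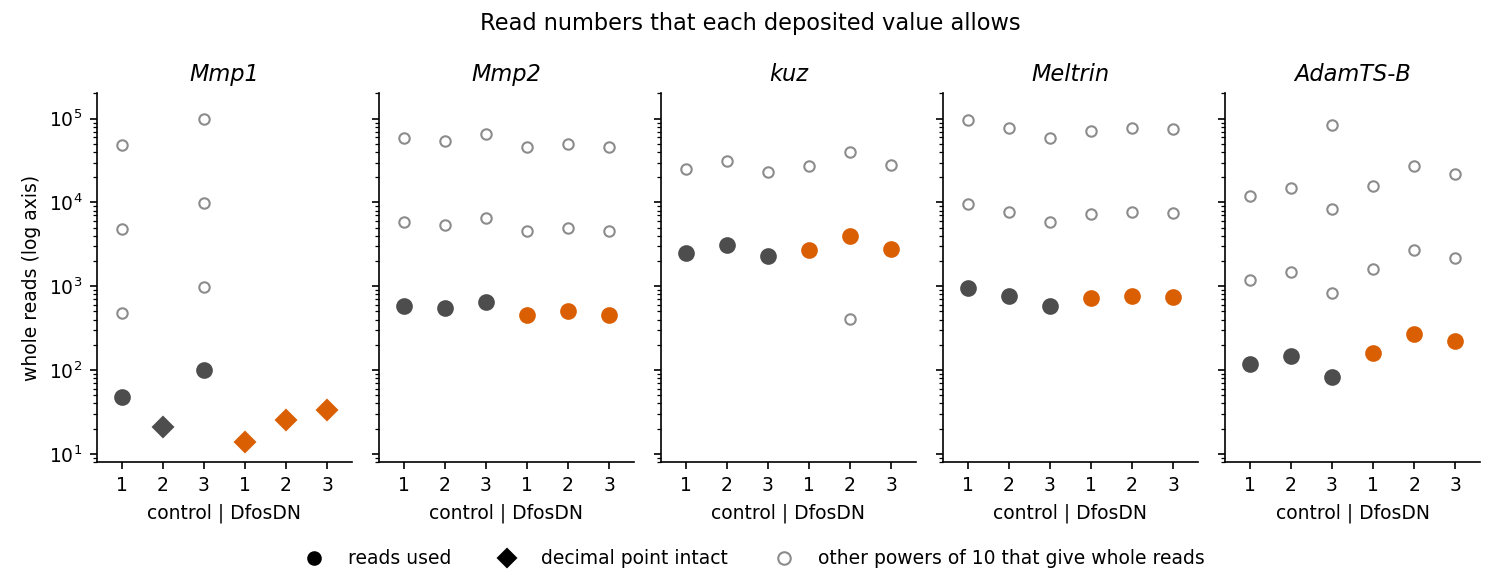
Whole read numbers that the digits of each deposited value allow (log axis), for 5 of the genes, by sample (replicates 1 to 3 of control, then of mac>DfosDN). Filled symbols are the reads used, diamonds are values with an intact decimal point and open circles are other powers of 10; kuz in mac>DfosDN 2 is the only sample where the value used (4020) is not the lowest possible one (402).

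Of all genes tested, tth, Gbs-70E and hep followed kuz most closely across the 6 samples, with Pearson r of log2 CPM of 0.988, 0.983 and 0.979. These are descriptive values over 6 samples that share the libraries and the scaling, and 88 genes had an r over 0.9 with kuz.

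Meltrin (FBgn0265140) encodes another membrane-anchored ADAM protease. It lies on chromosome 3R from 14664907 to 14697292 on the minus strand, with 2 transcripts. The control samples had 964, 775 and 584 reads, or 96.5, 79.5 and 67.8 CPM, and the mac>DfosDN samples 721, 765 and 744 reads, or 77.1, 93.3 and 79.1. All mac>DfosDN samples lay within the control range. The log2 fold change was 0.04 (SE 0.19, 95% interval -0.36 to 0.44, adjusted p = 0.937, limma; 2-sided exact permutation p = 1). Its interval covers levels of 0.780 to 1.36 times that of control, both taken as CPM + 1.

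Tace (FBgn0039734) is the fly counterpart of the mammalian TNF-releasing ADAM protease, and lies on chromosome 3R from 30000530 to 30003678 on the plus strand. Reads were few, with 22, 0 and 1 in the control samples and 10, 9 and 14 with DfosDN, or 2.20, 0 and 0.116 against 1.07, 1.10 and 1.49 CPM. The mac>DfosDN samples lay close together, between a single high control sample and the other two. At 0 reads, the level in control 2 could be up to 0.308 CPM, the equivalent of 3 reads. The log2 fold change was 0.53 (SE 0.55, 95% interval -0.63 to 1.69, adjusted p = 0.651, limma; 2-sided exact permutation p = 0.4). The control samples differed more among themselves than the group means did, and the fold change without control 1 was 1.07 on the log2 scale (adjusted p = 0.325, limma).

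AdamTS-B (FBgn0029791), which encodes a secreted ADAMTS protease, lies on chromosome X from 5698557 to 5708633 on the plus strand, with 2 transcripts that share 1 annotated end. Control macrophages had 118, 147 and 83 reads, or 11.8, 15.1 and 9.64 CPM, and the mac>DfosDN samples 159, 270 and 220 reads, or 17.0, 32.9 and 23.4. All mac>DfosDN samples lay above all control samples, the nearest being control 2 and mac>DfosDN 1. Among all genes tested, the groups did not overlap for 23.7%, with mac>DfosDN higher for 11.6% and lower for 12.1%, so 1 such gene in 7 is not more than the background.

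The mean of AdamTS-B was 12.2 ± 2.74 CPM (SD, n = 3) in control and 24.4 ± 8.02 (SD, n = 3) with DfosDN. This is a log2 fold change of 0.92 (SE 0.30, 95% interval 0.29 to 1.55, or 1.22 to 2.93 times the control level), with an unadjusted p = 0.00665 and an adjusted p = 0.0847 from limma. The 2-sided exact permutation test gave p = 0.1, the smallest value that 3 samples against 3 can give. The difference did not pass the adjustment in any of 21 alternative fits, in which the adjusted p lay between 0.0604 and 0.441. The fold change was above 0 in all 21, from 0.69 without mac>DfosDN 2 to 1.15 without mac>DfosDN 1. The exons of AdamTS-B share bases with CG33080 on the other strand, which had at most 16 reads in any sample.

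Some markers of other tissues were also higher in mac>DfosDN samples. The 3 gut markers GATAe, bap and fkh summed to 4.41 to 12.5 CPM in control and 21.3 to 38.9 in mac>DfosDN macrophages, and GATAe and fkh were higher at an adjusted p of 0.0101 and 0.0229 (limma). Each of these calls passed in 14 of 21 alternative fits, and with limma-voom the adjusted p of GATAe was 0.1003. GATAe had 26, 18 and 1 reads in control against 109, 120 and 51 in mac>DfosDN macrophages. Its control samples alone would not have reached the filter on low reads, so its call is not read as a result about gut cells. The amnioserosa markers hnt and Ance summed to 64.2 to 157 and 110 to 232 CPM, and Ance was higher (adjusted p = 0.0149, limma, under the threshold in 12 of 18 alternative fits). The tracheal markers summed to 6.97 to 12.3 and 9.04 to 22.6 CPM, with 0 of the 3 tested past the threshold. For the neuron and glia, muscle and heart, epidermis and salivary gland markers 0 of the genes tested passed, against 5.34% of all genes tested. Their summed levels overlapped between the groups, and the median log2 fold changes were 0.12, -0.31, -0.27 and 0.19. The part of such cells in the level of AdamTS-B was not tested.

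AdamTS-A (FBgn0038341 in the files) encodes the other ADAMTS protease, which is needed for the movement of several migrating cell populations in the fly embryo. It lies on chromosome 3R from 15442246 to 15476193 on the minus strand. In control, 80, 50 and 39 reads were found, or 8.01, 5.13 and 4.53 CPM, and in mac>DfosDN samples 48, 68 and 93 reads, or 5.13, 8.29 and 9.89. The groups overlapped, with control 1 among the higher and mac>DfosDN 1 among the lower samples. A log2 fold change of 0.34 (SE 0.37, 95% interval -0.43 to 1.12) was smaller than its standard error and not past the adjustment (adjusted p = 0.667, limma; 2-sided exact permutation p = 0.2). It was 0.16 without mac>DfosDN 3 and 0.58 without mac>DfosDN 1.

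**Figure D3:**
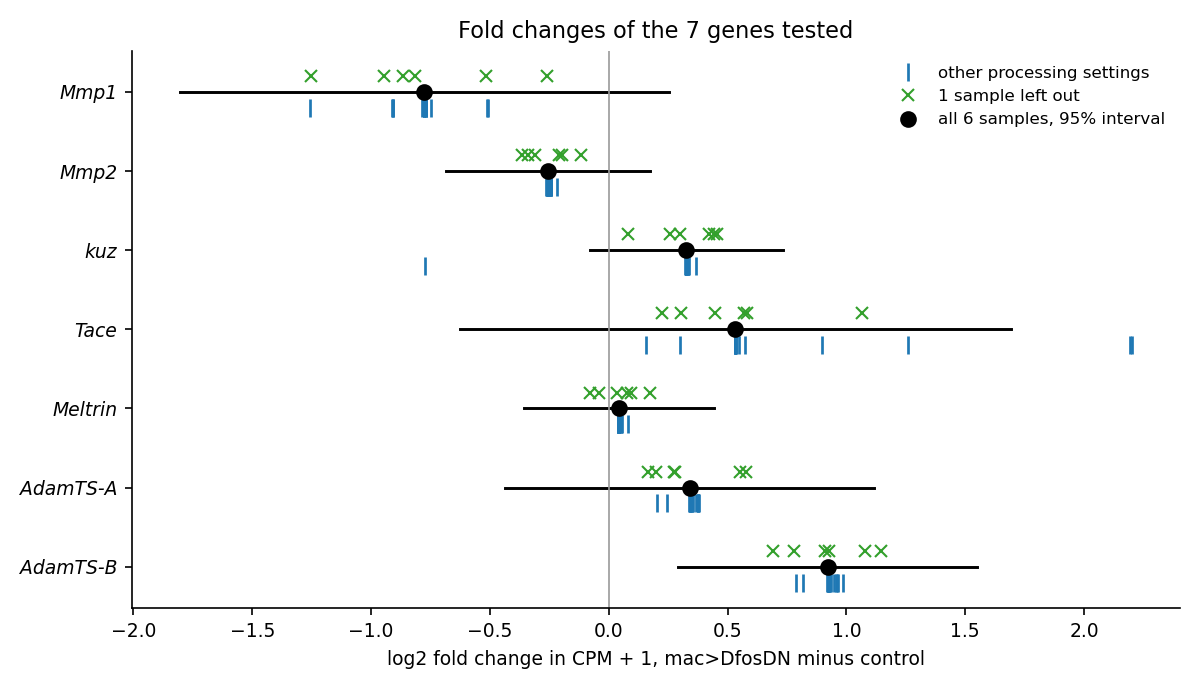
Log2 fold changes between mac>DfosDN and control macrophages of the 7 genes tested, with 95% intervals (black), after leaving out each sample (green crosses), and under other settings (blue ticks), some of which use another pseudocount or log2(TPM + 1). The interval of AdamTS-B, from 0.29 to 1.55, is the only one that does not reach 0, and the single blue tick of kuz left of 0, at -0.77, is the fit with 402 reads in mac>DfosDN 2.

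Genes that work with these proteases were examined as groups. The other fly ADAM and ADAMTS-family genes numbered 6, of which 5 were tested, and 1 was higher and 0 lower in mac>DfosDN macrophages (median log2 fold change -0.0021), against 2.07% and 3.27% of all genes. The gene that rose was nolo, which encodes an ADAMTS-like protein without protease domain, with 0, 1 and 2 reads in control against 15, 55 and 22 in mac>DfosDN macrophages (adjusted p = 0.0446, limma). It reached the filter on low reads only through its mac>DfosDN samples, so it could be tested only because it was high there. The count of 1 is therefore not read as a result about this group of genes. The call of nolo passed in 4 of 20 alternative fits, and the adjusted p was 0.134 with limma-voom. By reads the group was dominated by Ppn, a matrix protein of macrophages with ADAMTS-like domains and no protease domain, with 20506 to 28034 reads in control against 20035 to 22336 in mac>DfosDN macrophages (log2 fold change -0.11, adjusted p = 0.783, limma). Kul, a Kuzbanian-like ADAM protease, and mmd, a further ADAM gene, had at most 32 reads in any sample.

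Of the convertases Fur1, Fur2 and amon, which remove the inhibitory part of precursor proteins, and of Reck, a membrane-anchored metalloprotease inhibitor in mammals, 3 of 4 were tested and 0 passed the threshold. Of all genes tested 5.34% passed it. Fur1 had 269 to 462 reads in control against 303 to 456 in mac>DfosDN macrophages (log2 fold change 0.07, adjusted p = 0.922, limma), Fur2 and Reck had at most 49 reads in any sample, and amon was at 0 in all 6.

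Basement membrane proteins are among the substrates of matrix metalloproteases. Of 11 basement membrane genes, all tested, 2 fell and 0 rose in mac>DfosDN macrophages, where 3.27% of all genes tested fell and 2.07% rose, with 9 fold changes below 0 and a median log2 fold change of -0.49, against -0.0011 for all genes. SPARC, a collagen-binding protein, fell by 1.10 on the log2 scale (SE 0.24, adjusted p = 0.0112, limma), from 5304 to 9472 reads in control to 2200 to 3558. Tig, a matrix ligand of integrins, fell by 0.96 (SE 0.19, adjusted p = 0.0067, limma), from 1422 to 1921 reads to 719 to 850. These calls passed in 16 and 18 of 21 alternative fits. The collagen IV genes Col4a1 and vkg had log2 fold changes of -0.85 and -0.92, short of the threshold (adjusted p = 0.0604 and 0.0743, limma). For trol it was -0.87 (adjusted p = 0.0738, limma). Ndg went the other way, with 9.29 to 12.9 CPM in control against 15.8 to 23.5 in mac>DfosDN macrophages. Its log2 fold change was 0.80 (adjusted p = 0.124, limma), and that of wb was 0.08 (adjusted p = 0.911, limma). The summed level of the macrophage markers was lower too, with SPARC, NimC4 and drpr lower and gcm and gcm2 higher among the 14 markers (drpr in only 7 of 21 alternative fits, with an adjusted p of 0.0601 with limma-voom), 4 of which are also basement membrane genes, and their part in these values was not tested.

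Tetraspanins of the TspanC8 type carry Kuzbanian to the cell surface. Of Tsp3A, Tsp26A and Tsp86D, 0 passed the threshold, and Tsp26A came nearest with 87, 112 and 57 reads in control against 196, 239 and 124 in mac>DfosDN macrophages (log2 fold change 1.12, adjusted p = 0.0595, limma). Of 9 genes of the Notch pathway, in which Kuzbanian makes the first cut and presenilin with its partners the next, 0 passed. Both counts stand against 5.34% of all genes tested. N itself had 1520 to 2840 reads in control against 1877 to 3206 in mac>DfosDN macrophages (log2 fold change 0.32, adjusted p = 0.520, limma). The median of the Notch pathway genes was -0.43, against -0.0011 for all genes, with 6 values below and 3 above 0.

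Of 10 genes of the TNF, JNK and AP-1 pathway, through which Mmp1 is switched on in other fly tissues, 1 was higher and 0 lower (median log2 fold change -0.01), against 2.07% and 3.27% of all genes tested. The list includes kay, whose reads can include the transgene. The gene that rose was egr, the TNF ligand, with 37, 71 and 38 reads in control against 127, 89 and 144 in mac>DfosDN macrophages (log2 fold change 1.25, SE 0.34, adjusted p = 0.0418, limma). It passed in 7 of 21 alternative fits, and its adjusted p was 0.0581 with limma-voom. The JNK phosphatase gene puc is a standard readout of JNK activity. It had 570, 679 and 612 reads in control against 698, 1063 and 758 in mac>DfosDN macrophages (log2 fold change 0.48, adjusted p = 0.234, limma). Mmp1, with a lower mean in mac>DfosDN macrophages, did not pass either (adjusted p = 0.420, limma). A link between puc and Mmp1 was not tested. The JNK gene bsk and the AP-1 partner gene Jra had log2 fold changes of -0.64 and -0.99 (adjusted p = 0.0505 and 0.0557, limma).

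**Figure D4:**
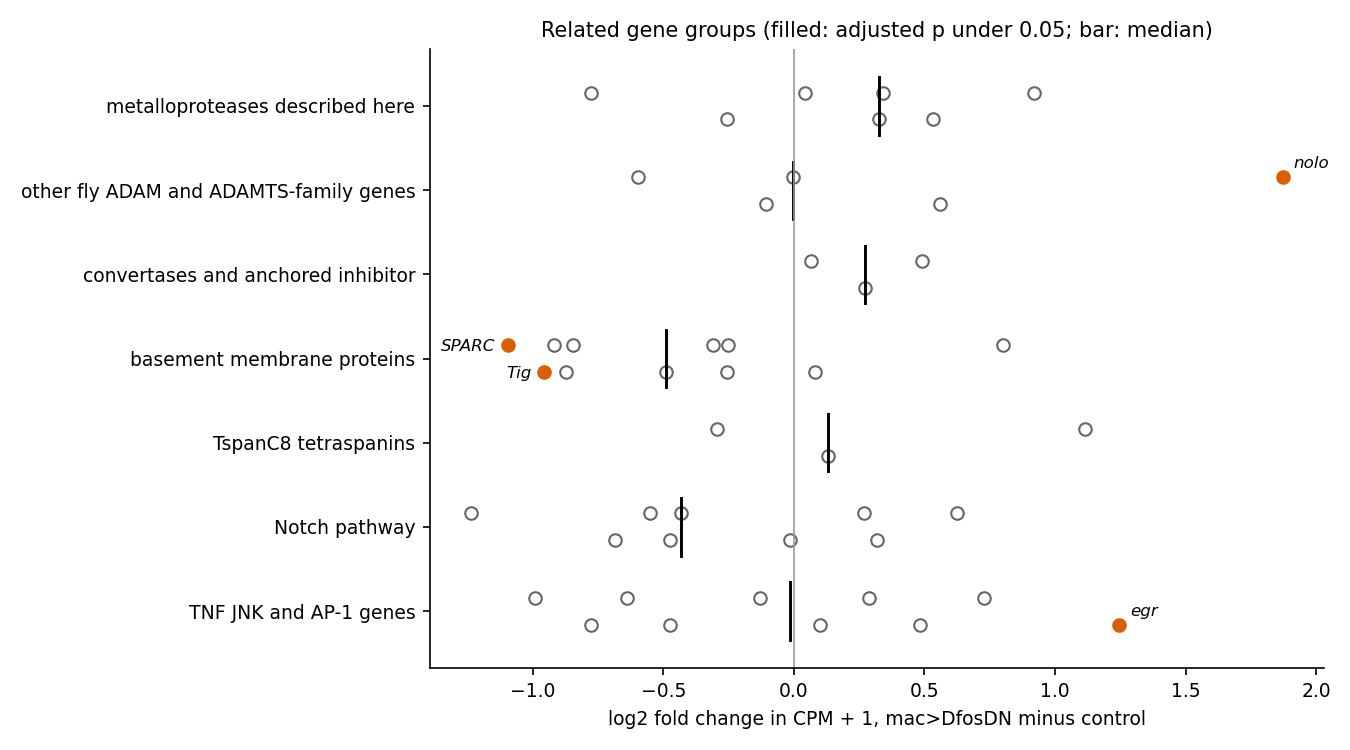
Log2 fold changes between mac>DfosDN and control macrophages of the 7 metalloprotease genes tested and of 6 related gene groups, each circle a gene and each bar the median of its group. Filled circles passed an adjusted p of 0.05 and are nolo and egr, both higher, and SPARC and Tig, both lower; the basement membrane genes have the lowest median, -0.49.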

How the data were processed

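Sorted embryonic macrophages were sequenced in 3 WT (control) and 3 DfosDN samples, grouped by their labels. By the methods and submitters' notes, the authors made 3′ end libraries (the labels give standard Illumina protocols), mapped reads to BDGP6 with STAR 2.5.1b, counted with HTSeq 0.5.4p3 on FlyBase annotation, and used edgeR's TMM scaling, voom and limma in R 3.4.4. The deposited column holds neither counts nor log values, but TPM-scale values, and every value of 1 or more lost its decimal point. How this happened is not given in the sources used here.

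A TPM value is the read number over the exon length, multiplied by a factor particular to the sample. The factor came from intact values, of which 97.8% to 98.4% per sample gave whole reads (tolerance 1e-06) with lengths of the BDGP6.54 annotation, a later release on the same build. For other values every power of 10 above the smallest also gives whole reads, and the likeliest was taken under a negative binomial model with a mean for each group. Genes with any posterior probability under 0.9 were set aside (473); 11644 were restored. The model therefore uses the groups. TPM at the likeliest powers sums to 996236 to 1011910 per sample, against 1e+06.

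TMM factors and read totals were taken over all restored genes. Genes with at least 10 reads in at least 3 samples were then compared as log2(CPM + 1), from restored reads per 1e+06. The test was limma 3.58.1 with an intensity trend (R 4.3.3, Python 3.11.15), with Benjamini-Hochberg adjustment over 7526 genes. Fold changes of low genes are understated on this scale. As restored reads are estimates, count models were not run. All 8 genes, kay, and the genes of the related groups that passed the test or had most reads are named. Genes with values near the threshold (Col4a1, vkg, trol, Tsp26A, bsk, Jra), Ndg, wb and puc were named after their values were seen. Members and lists were chosen with earlier results of these data known. Replicates are separate sorts by the methods. Other restoration rules, scalings, filters, pseudocounts, limma-voom, a replicate block and the omission of each sample were tried.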

Additional observations from a re-analysis of the deposited data

How the results depend on the processing

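None of the 7 genes tested passed the threshold in any of 21 alternative fits, 20 for Tace, which had too few reads for a filter of 30 reads. The numbers over all genes, 246 lower and 156 higher, were 156 and 102 with a single mean in the restoration, 10 and 7 with the smallest power for every value, 96 and 63 without a filter, and 120 and 77 with limma-voom and a single mean, a fit added after seeing the data. With log2(TPM + 1), 142 were lower. Leaving out each sample gave 98 to 229 lower and 88 to 156 higher genes, the fewest without control 3, and 128 lower without control 2 and 96 higher without mac>DfosDN 2. Kuz reversed to -0.77 with the smallest powers. Meltrin ranged from -0.0791 without control 3 to 0.17 without control 1, and was -0.04 without mac>DfosDN 2. Tace ranged from 0.16 with a pseudocount of 4 to 2.20 with limma-voom and a single mean. The other genes tested kept their direction in all fits. The causes were not tested. Same-numbered samples did not deviate together (correlations of -0.028, 0.0053 and 0.011 over 7526 genes). No pairing by number was thus seen, which does not show that same-numbered sorts were prepared apart. A replicate block gave 257 lower and 158 higher genes and 0 of the 7. With limma-voom and a replicate block, also added after seeing the data, 236 were lower and 139 higher. Timp is limited by depth, with at most 10 reads in a sample, and Tace had 0 to 22 reads.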
